A study of Mus musculus with 4 samples.

Results

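The genes described are 10 members of the CD40 and NF-kB response in B cells, chosen by name from 31053 genes counted: the receptor Cd40, the adaptor Traf1, the transcription factor subunits Nfkb1, Nfkb2, Rel and Relb, the inhibitors Nfkbia and Tnfaip3, and the target genes Bcl2a1b and Icam1. They were read in 4 single-cell RNA-seq libraries of splenic B220+IgD- cells, sorted from mice 10 days after immunization with sheep red blood cells (SRBC), an antigen that induces germinal centers (GCs). Each library came from 1 mouse. The WT mouse carried Cg1Cre+/- alone, the C mouse also carried Crebbp fl/+, the K mouse Kmt2d fl/+, and the CK mouse Crebbp fl/+ and Kmt2d fl/+, so all 4 carried the Cre. All were young adult females of the C57BL/6J background. The Cre is expressed with transcription of the IgG1 constant region, so deletion is aimed at GC B cells. With 1 mouse per genotype there is no replicate check, and no p-value is given anywhere. The 10 genes were chosen with earlier results of these data known, so their counts beside all genes are descriptions. Intervals are 95% and cover counting error only.

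CD40 is a receptor of the tumor necrosis factor family on B cells, bound by CD40 ligand on follicular helper T cells. In the GC, centroblasts (CB) divide in the dark zone and centrocytes (CC) test their antigen receptor and seek T cell help in the light zone. CD40 recruits TRAF adaptors, which release Rel-containing dimers from the inhibitor encoded by Nfkbia (canonical arm) and allow Nfkb2 processing into dimers with Relb (noncanonical arm). Several genes of the pathway, Nfkbia and Tnfaip3 among them, are themselves switched on by NF-kB and damp the signal.

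Promoter windows of 300 bases (250 before to 50 after the start, RefSeq, GRCm38.p6) were at hand for Nfkbia, Nfkb2, Rel, Traf1, Bcl2a1b, Tnfaip3 and Icam1. None was found for Cd40, Nfkb1 and Relb. They are shown because 4 of these genes held a match to the kB consensus, the sequence bound by NF-kB dimers: Nfkbia, Nfkb2, Rel and Tnfaip3. The consensus was GGGRNWYYCC (R is A or G, W is A or T, Y is C or T, N is any base). Nfkb2 had 3 windows and Tnfaip3 had 2, and the first listed window of each of the 4 genes held a match. On either strand, 1480 of 32851 promoter windows of the same length held such a match (4.5%). The looser motif GGGNNNNNCC was in 50.8% of windows, and every one of the 7 genes but Traf1 held it. The 150 bases before the first listed start are given 5′ to 3′ on the gene's strand, with consensus matches in capitals. Traf1 is given as the window with no match to either motif. Bcl2a1b and Icam1 also held no consensus match and are not printed. A match is a description of the letters only. In GRCm38 (GENCODE vM21) the genes lie at chr2:165055627-165072948 (Cd40), chr12:55489410-55492647 (Nfkbia), chr3:135584655-135691547 (Nfkb1), chr19:46304320-46312385 (Nfkb2) and chr11:23736847-23770970 (Rel). The others lie at chr7:19606217-19629438 (Relb), chr2:34941750-34961772 (Traf1), chr9:89199209-89207827 (Bcl2a1b), chr10:19000910-19015657 (Tnfaip3) and chr9:21015985-21028817 (Icam1).
Nfkbia (chr12:55492648-55492797, minus strand): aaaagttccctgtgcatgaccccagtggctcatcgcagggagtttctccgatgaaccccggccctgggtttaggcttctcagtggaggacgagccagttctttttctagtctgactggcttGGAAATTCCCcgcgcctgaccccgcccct
Nfkb2 (chr19:46304587-46304736, plus strand): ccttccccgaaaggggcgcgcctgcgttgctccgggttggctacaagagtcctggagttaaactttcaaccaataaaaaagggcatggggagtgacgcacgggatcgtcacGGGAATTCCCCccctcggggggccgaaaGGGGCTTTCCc
Rel (chr11:23770970-23771119, minus strand): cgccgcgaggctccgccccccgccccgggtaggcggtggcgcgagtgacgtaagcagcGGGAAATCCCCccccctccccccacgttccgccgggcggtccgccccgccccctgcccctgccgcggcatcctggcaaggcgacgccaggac
Tnfaip3 (chr10:19015411-19015560, minus strand): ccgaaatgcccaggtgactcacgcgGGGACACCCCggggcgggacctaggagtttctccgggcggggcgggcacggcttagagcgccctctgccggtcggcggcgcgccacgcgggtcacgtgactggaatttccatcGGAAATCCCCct
Traf1 (chr2:34961773-34961922, minus strand): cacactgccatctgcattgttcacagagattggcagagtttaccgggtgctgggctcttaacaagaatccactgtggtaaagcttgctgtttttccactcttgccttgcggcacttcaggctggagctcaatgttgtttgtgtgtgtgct

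The libraries held 8071 to 12852 cell barcodes and 33270825 to 39803865 UMIs (unique molecular identifiers, 1 per captured transcript). Of these, 1227 WT, 2041 C, 2583 K and 3953 CK cells carried the authors' GC subtype label, with median depths of 3653 to 4931 UMIs per cell. Pairs of libraries shared 17 to 31 barcodes. The K library stood apart: 1225 of the 1274 cells of one GC cluster came from it, and the median gene in K over WT was at -0.14 to -0.19 on the log2 scale in CB, CC, transitioning and T-like cells. Markers went with the labels: Cd83, a light zone surface gene, was at 60.3 to 86.7 UMIs scaled to the total of the set of cells (CPM) in CB and at 421.0 to 571.7 CPM in CC. The B cell gene Ms4a1 was at 1462 to 1743 CPM in annotated cells and 41.3 to 55.0 CPM in T-like cells, and Cd3e, of the T cell receptor complex, at 1.95 to 4.83 CPM against 1044 to 1099 CPM. T-like clusters held 1520 to 3155 barcodes per library despite the B220 gate. Crebbp was at 68.4 CPM in annotated WT cells, against 43.0 (C), 38.6 (K) and 38.0 (CK), and Kmt2d at 18.5, 21.3, 9.85 and 15.1 CPM. Crebbp was thus also low in K, whose Crebbp alleles are intact by label, and 3 prime tags need not read the deleted exons.

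The first comparison was CC over CB within each library. All 10 genes were at least 1.5-fold higher in CC than in CB in C, K and CK, and 7 of 10 were in WT. Over all genes tested (at least 20 UMIs in the 2 sums), the share was 15.2% (WT), 14.3% (C), 14.2% (K) and 16.8% (CK). In all 4 libraries at once, 7 of 10 passed (Cd40, Nfkbia, Nfkb2, Rel, Relb, Bcl2a1b and Icam1) and none was lower, against 5.59% of 7674 genes higher and 9.11% lower. With each cell thinned to 2000 UMIs and shallower cells left out, 4 of 10 passed in all 4 libraries. Without the K library 7 passed, and without WT 10. The median log2 ratio of the 10 genes was 0.91 (WT), 1.34 (C), 1.20 (K) and 1.57 (CK), and that of all genes between -0.13 and -0.02. Subtype labels were made from the same counts, so these values describe the labels and test nothing. CC were the shallower cells, with median depths of 2670 to 4741 UMIs against 4604 to 5526 in CB, a difference that CPM scales out only for the total. Scrublet called as doublets 7.18% of CC in C and 1.71% to 2.88% in the others.

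Cd40 was at 32.2 CPM in CB and 58.5 in CC of WT. The values were 27.9 and 70.6 for C, 31.5 and 73.1 for K, and 21.9 and 63.5 for CK. Every CC value lay above every CB value. The log2 ratio ran from 0.86 (0.27 to 1.49) in WT to 1.54 (1.18 to 1.90) in CK. In T-like cells, which should lack it, Cd40 was at 1.13 to 2.41 CPM.

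Among the inhibitors, Nfkbia, which holds NF-kB dimers in the cytoplasm, was at 79.0, 105.8, 100.6 and 94.9 CPM in CB of WT, C, K and CK and at 249.8, 267.0, 229.3 and 290.9 CPM in CC. The log2 ratio was 1.66, 1.34, 1.19 and 1.62, and no CB value reached a CC value. Tnfaip3, a ubiquitin-editing enzyme that ends the signal, was counted 5 to 13 times in CB and 16 to 24 times in CC. Its CB level was 10.4 CPM in WT and 1.99 to 2.76 CPM in the mutants, while CC held 6.79 to 10.1 CPM. Its WT log2 ratio of -0.25 had an interval of -1.48 to 1.05, so no difference between CB and CC was detectable there at this depth.

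The subunits differed in the size of the ratio. Nfkb2, of the noncanonical arm, was at 10.2 to 12.8 CPM in CB and 28.7 to 37.7 in CC, with log2 ratios of 1.44 to 1.86. Its partner Relb went from 19.5 to 33.5 CPM up to 67.8 to 74.9 CPM, with log2 ratios of 1.02 (K) to 1.85 (CK). Nfkb1, of the canonical arm, had smaller ratios: it was at 83.1, 66.9, 60.5 and 62.8 CPM in CB of WT, C, K and CK and 120.8, 111.5, 94.3 and 121.5 CPM in CC, with log2 ratios of 0.54 (WT), 0.74 (C), 0.64 (K) and 0.95 (CK). Rel was at 107.0 CPM in CB and 208.8 in CC of WT. The values were 115.9 and 230.4 for C, 49.5 and 114.3 for K, and 129.5 and 241.8 for CK. Rel ratios were alike in the 4 libraries, 0.90 to 1.21 on the log2 scale, though its K levels were low throughout.

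Among the adaptor and targets, Bcl2a1b, of the BCL2 family of survival proteins, had the widest range, with log2 ratios of 1.25 (WT), 1.91 (C), 1.95 (K) and 2.45 (CK). Its levels were 42.0 to 73.8 CPM in CB and 176.0 to 236.9 in CC. Reads of Bcl2a1b may be split with near-identical copies, so its value is uncertain. The copy Bcl2a1d went from 7.01 to 16.6 CPM in CB up to 34.0 to 41.0 in CC, and Bcl2a1a did not pass 1.20 CPM in either. Icam1, an adhesion molecule that binds integrins on T cells, was at 23.6 to 49.7 CPM in CB and 68.7 to 83.9 in CC. Traf1, an adaptor that binds the receptor complex, had the smallest ratio in WT but Tnfaip3, 0.39 (0.05 to 0.74), and 0.86 to 1.03 in the mutants.

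**Figure D1:**
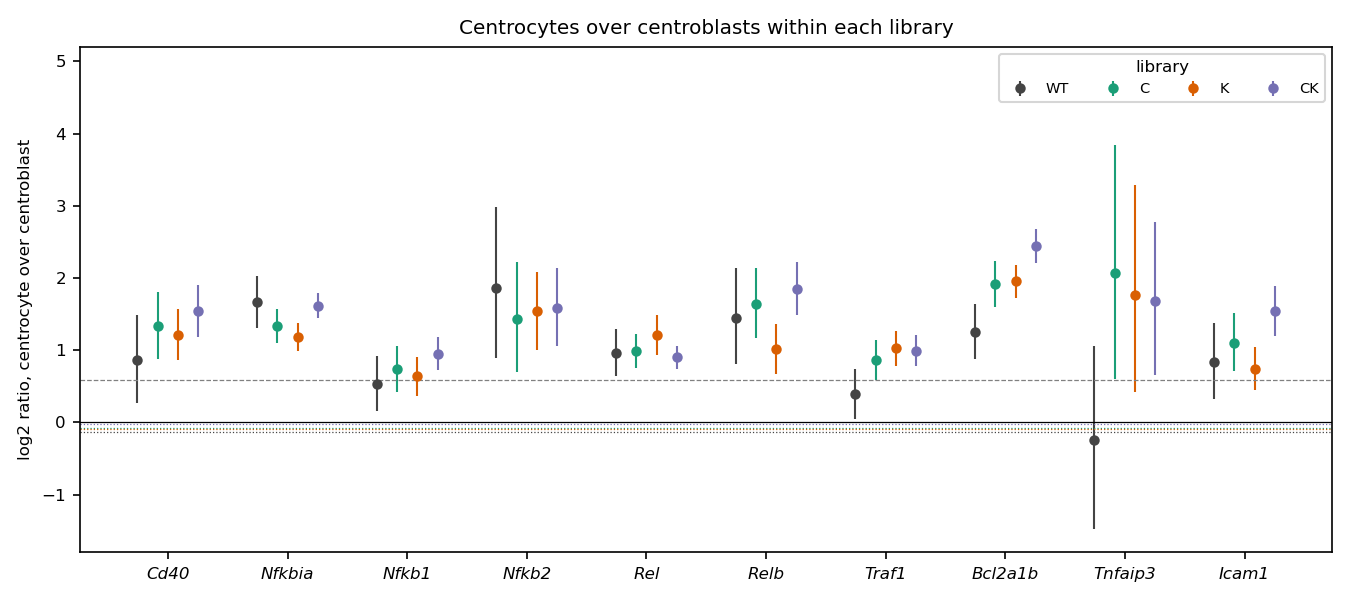
Log2 ratio of CPM in CC over CB (vertical axis) for each of the 10 genes in 4 libraries (colors). Bars are 95% counting intervals, the dashed line marks 1.5-fold and the dotted lines the median of all genes. All points but Tnfaip3 in WT (-0.25) lie above 0.

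The wider pathway list, chosen by role, held 63 further genes, of which 51 had enough counts in all 4 libraries. Of these, 16 were at least 1.5-fold higher in CC in all 4 libraries and none was lower, against 5.59% and 9.11% of all genes. The list was chosen with earlier results of these data known, so its shares are a description and not a test. By role, with the 10 genes counted in, 11 of 17 measured targets passed, 6 of 12 inhibitors, 3 of 5 subunits and 2 of 4 receptors. Of 16 adaptors and kinases 1 passed (Birc3, a ubiquitin ligase), a share close to that of all genes, and none of 4 genes of the antigen receptor arm or of 3 of the linear ubiquitin complex, which are too few to set against it. The highest means over the 4 libraries were Nfkbid (3.15 on the log2 scale), a nuclear regulator of NF-kB, Cd83 (2.69) and Slamf1 (2.09). The lowest were Gadd45b (-0.52), the adhesion receptor Cd44 (-0.48) and the adaptor Traf2 (-0.44). Of the immediate early genes, 5 of 8 measured (Junb, Jund, Egr1, Egr3 and Ier2) were higher in all 4 libraries, against the same 5.59% of all genes. These genes also respond to cell handling, and their part in the result was not tested.

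Levels across all sets of cells separated the members. Nfkbia was highest in prememory cells (374.1 to 409.1 CPM), then in unannotated non-GC B-like cells (282.5 to 309.6), and at 59.9 to 80.0 CPM in transitioning cells and 79.0 to 105.8 in CB, ranges that overlapped. Ranges of non-GC B-like cells and CC overlapped, as did those of CC and T-like cells (224.8 to 231.7). Cd40 was at 79.5 to 108.8 CPM in non-GC B-like cells, 74.3 to 90.1 in prememory cells and 58.5 to 73.1 in CC, and the first pair of ranges overlapped. In early CB, Nfkbia was at 259.3 CPM in WT and at 99.7 to 155.9 CPM in the mutants, with 38 WT cells.

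**Figure D2:**
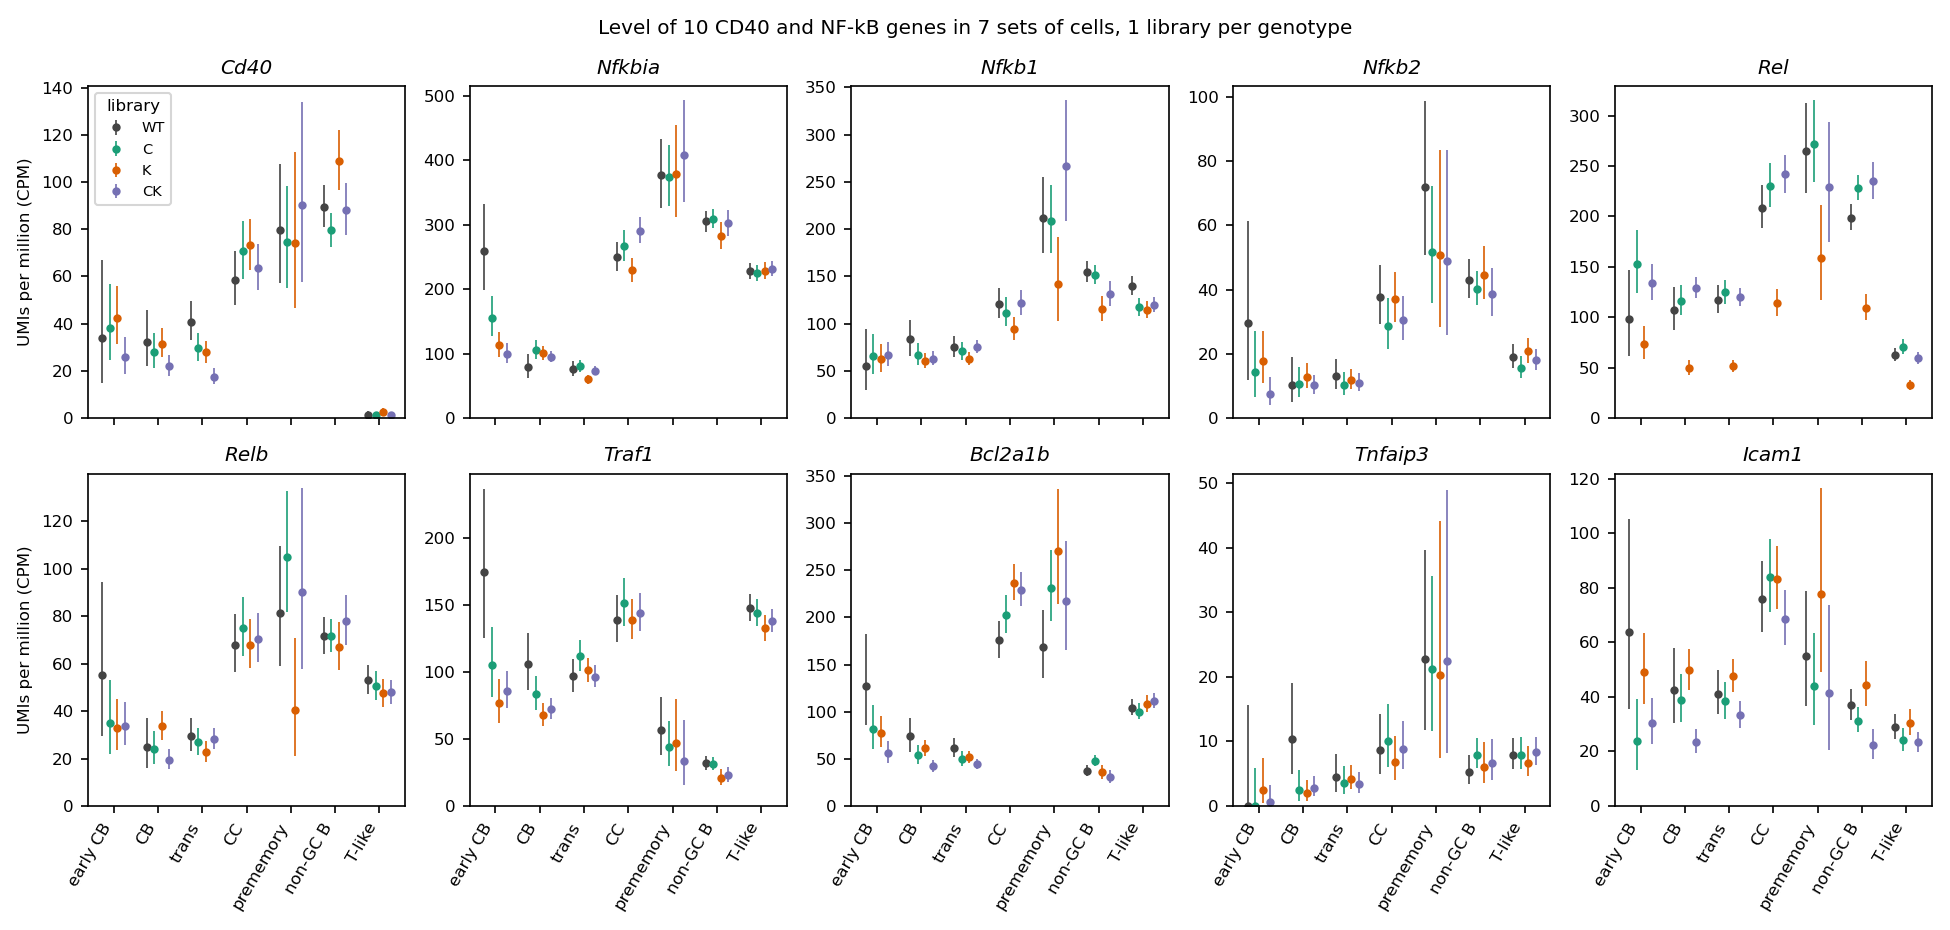
CPM (vertical axis, from 0) of each gene in 7 sets of cells (horizontal axis) in 4 libraries (colors), with 95% Poisson intervals. Cd40 is near 0 in T-like cells, Traf1 is low in prememory and non-GC B-like cells, and Rel is low in K in each set.

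Non-GC B-like cells, 1365 to 3205 per library, were the unannotated cells of B cell clusters with none of 7 GC markers called. Against CC, Traf1, Bcl2a1b and Icam1 were at least 1.5-fold lower in all 4 libraries (3 of 10, against 5.93% of 8603 genes). None was higher, against 10.5%. Traf1 was at 21.0 to 31.7 CPM there and 138.6 to 151.3 in CC, and Bcl2a1b at 30.6 to 48.2 and 176.0 to 236.9. Within these cells, cluster 12 held 3.26 to 7.44 CPM of Traf1, cluster 13 held 15.9 to 31.6, and cluster 14 held 51.3 to 92.9. Bcl2a1b followed the same order, with 6.61 to 10.4, 44.4 to 53.5 and 51.9 to 90.9 CPM, the last pair of ranges overlapping. Among the subunits, Rel was at log2 ratios of -0.07 to -0.01 and Relb at -0.06 to 0.14. Nfkb1 was at 0.36, 0.45, 0.29 and 0.11 in WT, C, K and CK, with intervals above 0 in all but CK. Nfkb2 was at 0.19, 0.49, 0.27 and 0.34, with an interval above 0 in C alone. Cd40 was at 0.17 to 0.61. Of the wider list, 11 of 54 measured genes were lower in all 4 libraries (Cd83, Cd86 and Fas among them), against 5.93% of all genes. Another 7 were higher (the chemokine receptor Ccr7 and the transcription factor Irf4 among them), against 10.5%, a share close to that of all genes. Fas was one of the 7 GC markers and Ccr7 one of the non-GC markers used to name these clusters. Their direction was thus largely set by the naming. Traf1 was also at 132.3 to 147.5 CPM in T-like cells.

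In prememory cells, 93 to 225 per library, Nfkb1 and Tnfaip3 were at least 1.5-fold higher than in CC in all 4 libraries, against 7.90% of 6823 genes, and Traf1 was lower, against 6.93%. Nfkb1 was at 212.0 CPM (WT), 208.4 (C), 141.9 (K) and 266.5 (CK). Its log2 ratio was 0.81, 0.90, 0.59 and 1.13, the K value only just past 1.5-fold. Tnfaip3 rested on 6 to 14 UMIs per library, at 20.3 to 22.7 CPM, with log2 ratios of 1.08 to 1.58. The value of 1.08, in C, had an interval of -0.03 to 2.15. Traf1 fell to 33.8 to 56.8 CPM, with log2 ratios of -2.09 to -1.29. Relb was at -0.74 in K, on 12 UMIs and with an interval of -1.73 to 0.098, and at 0.26 to 0.49 in the other libraries, where the interval lay above 0 in C alone. Recycling cells numbered 8 to 49 per library, too few for an order.

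The authors' pseudotime starts in CB and ends at prememory cells, and it was cut into 5 bins of equal numbers of WT cells. Cd40, Nfkbia, Nfkb1, Nfkb2, Rel, Relb and Tnfaip3 were highest in the last bin in all 4 libraries, Tnfaip3 on 14 to 24 UMIs there. Cd40 ran 37.4, 43.6, 47.3, 45.6 and 75.4 CPM over the 5 bins in WT and 24.0, 27.0, 31.3, 35.3 and 55.9 in CK. The CK values lay below WT in every bin. C and K lay below WT in the first 3 bins, at 30.2 and 30.9 CPM in the first, and in the last, at 64.6 and 67.1 CPM. In bin 4 they lay above WT, at 50.4 and 55.0 CPM. Rel ran from 111.0 to 241.3 CPM in WT, 123.6 to 244.3 in C, 131.4 to 212.6 in CK and 56.1 to 119.5 in K. Traf1 instead had its highest value in bins 2 to 4 in all libraries, and in the last bin it was at 90.6 CPM (WT), 98.7 (C), 95.7 (K) and 113 (CK). Over the 10 genes, the median log2 ratio of last over first bin was 1.07 (WT), 1.30 (C), 1.06 (K) and 1.21 (CK). The bins differed in makeup: prememory cells were 47.8% of the last bin in WT and 12.7% in CK, and CC were 49.4% and 75.2%. Pseudotime was computed from expression, so this is a description.

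**Figure D3:**
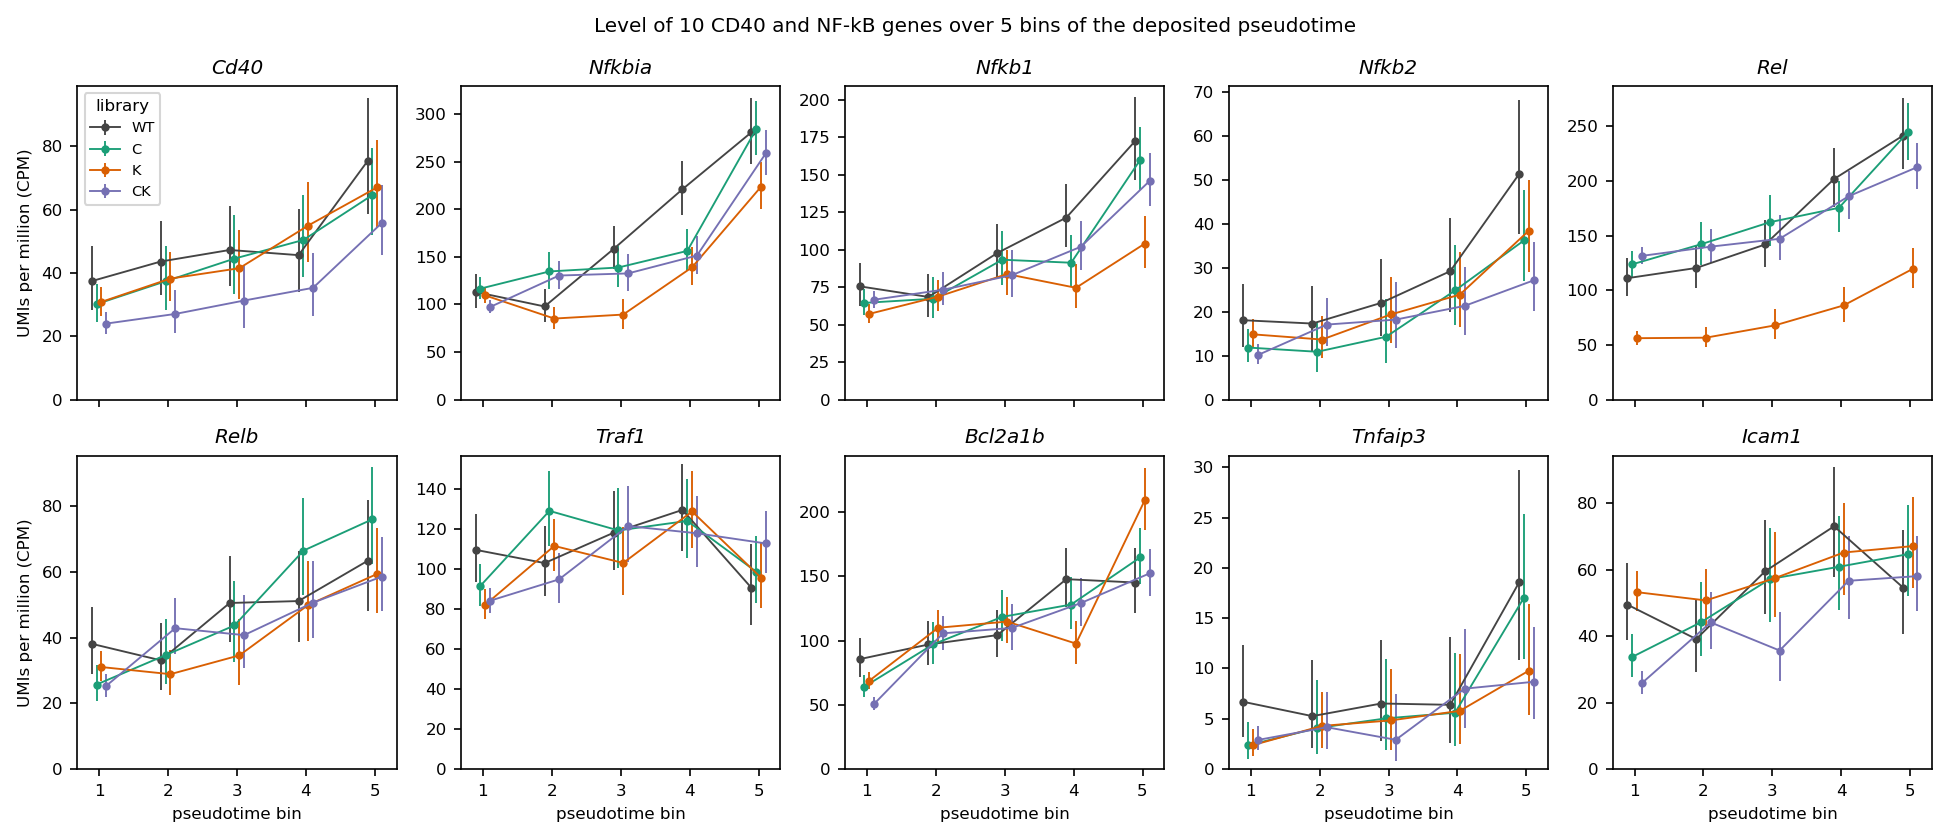
CPM (vertical axis, from 0) of each gene in 5 bins of the deposited pseudotime (horizontal axis) in 4 libraries (colors), with 95% Poisson intervals. Most genes are highest in bin 5, while Traf1 is highest in bins 2 to 4.

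The second question was whether the mutant libraries differed from WT within a subtype. All 3 were set against the same WT library. In C, none of 9 measured genes in CB was 1.5-fold higher or lower than in WT, against 8.79% and 8.18% of all genes. In CC it was 0 of 10 in both directions, against 5.71% and 5.82%, and in transitioning cells 0 of 10, against 5.10% and 5.27%. Nfkbia in CB of C was at a log2 ratio of 0.42 (0.04 to 0.82). Cd40 in transitioning cells of C was at -0.47 (-0.88 to -0.05).

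In K, none was higher in CB (7.45% of all genes), CC (4.60%) or transitioning cells (5.13%). In CB 2 of 9 were lower, Rel and Traf1, against 23.2% of all genes. In CC and in transitioning cells 1 of 10 was lower, Rel both times, against 22.6% and 22.7%. These shares show that 1.5-fold lower values in K were common for any gene. Rel in K over WT was at -1.11 in CB, -1.19 in transitioning cells and -0.87 in CC, and in each of these sets K lay below the other 3 libraries, whose values were close. It was also -0.86 in non-GC B-like cells and -0.95 in T-like cells, where the levels were 62.5 (WT), 70.7 (C), 32.4 (K) and 59.4 (CK) CPM. Relative to the median gene, it was -0.96 in CB, -0.73 in CC and -0.75 in T-like cells. The low Rel of K was as large in T-like cells as in CC (the CC value relative to T-like cells was 0.076), and its cause was not tested.

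In CK, 3 of 10 genes were lower in CB than in WT, against 12.0% of all genes, and none higher, against 11.5%. They were Bcl2a1b at -0.81 (-1.21 to -0.40), Icam1 at -0.85 (-1.38 to -0.30) and Tnfaip3 at -1.91 (-3.22 to -0.56), the last on 13 and 10 UMIs. Traf1 (-0.55) and Cd40 (-0.56, interval -1.15 to 0.07) lay just inside 1.5-fold. The count of 3 became 5 with cells above the gene limit and 1 relative to non-GC B-like cells. Icam1 in CB was at 42.6 CPM (WT), 39.0 (C), 49.7 (K) and 23.6 (CK), so CK alone was low. Tnfaip3 rested on few counts and all 3 mutant libraries lay below WT, with 5 UMIs in C and 7 in K. Bcl2a1b was at 73.8, 53.9, 61.1 and 42.0 CPM. In CC of CK none of 10 passed in either direction, against 7.17% higher and 5.66% lower. Bcl2a1b there was at 0.38 (0.18 to 0.58), Icam1 at -0.15 (-0.47 to 0.18) and Cd40 at 0.12 (-0.24 to 0.48).

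In transitioning cells of CK, Cd40 alone was lower, against 7.48% of all genes, with none higher, against 7.97%. It was at 40.8 CPM (WT), 29.5 (C), 27.8 (K) and 17.6 (CK), from 100, 100, 141 and 100 UMIs. The CK value had an interval of 14.3 to 21.3 CPM and the WT value of 33.2 to 49.6, and C and K lay between. The log2 ratio in CK was -1.22 (-1.63 to -0.80), in K -0.55 (-0.93 to -0.17) and in C -0.47. With each cell thinned to 2000 UMIs and shallower cells left out, it was -1.41 in CK. This comparison was added after the values were seen. Median depths were 5278 UMIs in WT and 3618 in CK.

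**Figure D4:**
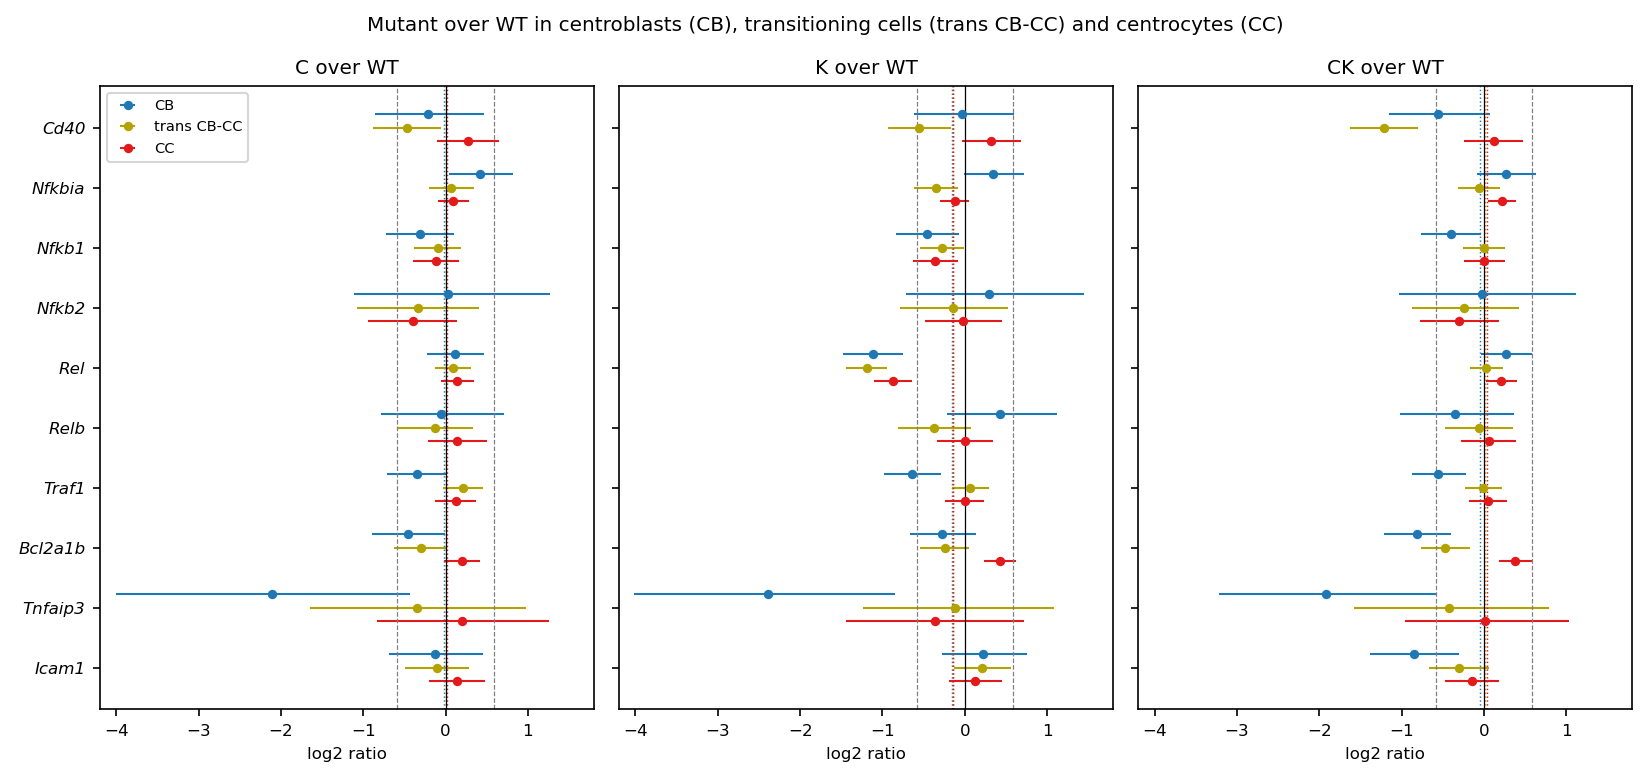
Log2 ratio of C, K and CK over WT (horizontal axis) for 10 genes (vertical axis) in CB, transitioning cells and CC (colors). Bars are 95% counting intervals, dashed lines mark 1.5-fold and dotted lines the median of all genes, and Cd40 in CK is lowest in transitioning cells at -1.22.

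GC B-like cells with 2500 genes or more, which the annotation leaves out, numbered 633 to 840 per library. In CK 4 of 10 genes were lower there than in WT, against 7.93% of all genes: Cd40 (-0.82), Nfkbia (-0.70), Nfkb2 (-0.63) and Icam1 (-0.85). In K 3 were lower, against 22.3%, and in C none, against 4.65%. The median over the 10 genes was -0.33 (C), -0.37 (K) and -0.53 (CK). Subtypes were not separated in this set, and their mix can differ between libraries.

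In non-GC B-like cells, Cd40 in CK was at -0.02 (-0.26 to 0.21), and 1 of 10 genes was lower (5.88% of all genes), Icam1 at -0.74 (-1.18 to -0.31), with none higher (3.54%). Icam1 was at 37.0 CPM (WT), 31.3 (C), 44.3 (K) and 22.2 (CK), the order seen in CB, and in T-like cells its ratio in CK was -0.31. Deletion of the alleles was not measured in these cells. In C none of 10 passed, against 4.40% lower and 2.71% higher. In K 2 were lower, Rel and Traf1 (-0.59), against 22.2%, and none higher, against 2.89%.

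**Figure D5:**
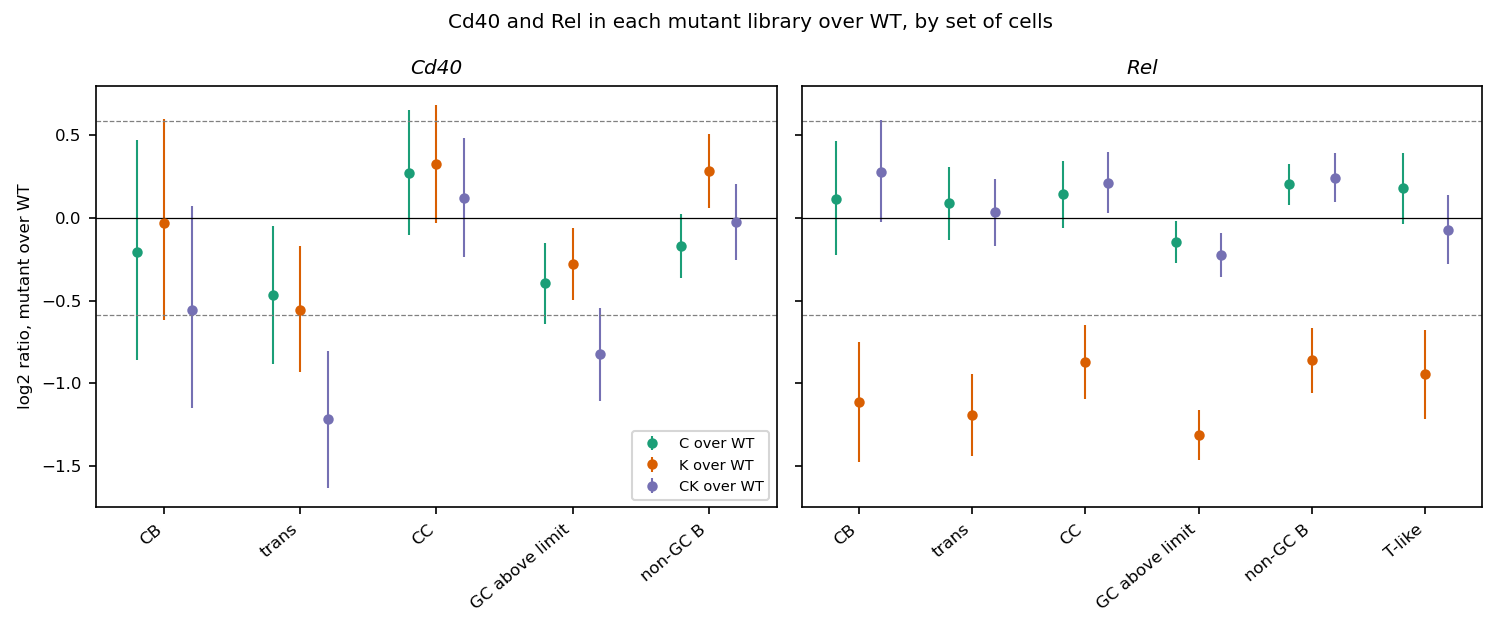
Log2 ratio of each mutant library over WT (vertical axis) for Cd40 and Rel in 5 or 6 sets of cells (horizontal axis), with 95% counting intervals and dashed lines at 1.5-fold. Cd40 in CK is low in transitioning cells (-1.22) and in GC B-like cells above the gene limit (-0.82). It is at -0.56 in CB, 0.12 in CC and -0.02 in non-GC B-like cells. Rel in K is low in each set (-0.86 to -1.31).

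Of the wider list in CK over WT, the lowest in CB were the cytokine gene Tnf (-1.40), Birc3 (-0.86) and Tnip1 (-0.80), a partner of Tnfaip3. The highest were Otud7b (1.22), Traf3 (0.59) and Bcl3 (0.47). In CC the lowest were Lta (-0.78), Traf5 (-0.51) and Gadd45b (-0.42), and the highest Bcl2l1 (0.79), a survival gene, Tab1 (0.56) and Myc (0.54). Of 51 measured genes of this list in CB, 13 were lower and 2 higher, against 12.0% and 11.5% of all genes, and of 53 in CC 6 were lower and 1 higher, against 5.66% and 7.17%. The median of the list was -0.26 in CB and -0.11 in CC, and that of all genes -0.04 and 0.04.

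Myc is known as a gene that T cell help induces in centrocytes, and CC were split by whether they held a Myc UMI. A UMI does not show that a cell was positively selected, and free RNA can give one. Each CC was thinned to 2000 UMIs, and CC below that depth were left out (12 WT, 34 C, 25 K and 161 CK). This gave 9 WT, 14 C, 30 K and 29 CK cells with Myc. These were 2.43% to 5.12% of thinned CC, against 0% to 0.733% of CB thinned to the same depth. Before thinning, the shares were 4.27% to 8.02% of CC and 1.48% to 2.38% of CB. Before thinning, their median depths were 5770, 3582, 5200 and 3336 UMIs against 4771, 3598, 3838 and 2860 in CC without Myc. Of 8 members with enough counts, 5 were at least 1.5-fold higher in all 4 libraries (Nfkbia, Rel, Traf1, Bcl2a1b and Icam1), against 3.61% of 4067 genes. Which genes passed depended on the thinning: without it Traf1 was at 0.55 in C and no longer passed, while Relb passed at 0.85 to 1.25. Nfkbia was at 944.4, 1036, 916.7 and 982.8 CPM with Myc and at 206.4, 246.3, 182.6 and 247.3 without, a log2 ratio of 2.19, 2.07, 2.33 and 1.99. Every library with Myc lay above every library without. Rel was at 555.6 CPM with Myc and 196.7 without in WT, and its log2 ratio was 1.13 to 1.46 in the mutants. Icam1 ratios were 1.90, 1.47, 1.87 and 1.39, the WT value on 4 UMIs with an interval from -0.04 to 3.36. Traf1, which fell towards prememory cells, had log2 ratios of 1.82, 0.68, 1.63 and 1.38 with Myc, the C value on 6 UMIs with an interval from -0.79 to 1.84. Cd40 rested on 2 to 7 UMIs in cells with Myc, with ratios of -0.21 to 1.06 and intervals that all held 0. Without thinning it rested on 8 to 32 UMIs, and its ratio was 0.81 (-0.19 to 1.68) in WT and 0.31 (-0.94 to 1.33) in C. In K it was then 1.01 (0.41 to 1.57), and in CK 0.91 (0.21 to 1.55), so the CK value changed sign with thinning.

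Across the 24 sums of 4 libraries and 6 subtypes, the genes outside the 10 whose levels ran most like the mean of the 10 were Il4i1 (Pearson r 0.94), Snn (0.90), Cd52 (0.89), Nfkbid (0.88) and Rps7 (0.88), of 6525 genes. Sums share libraries and differ in depth, so r is a description. Among the members, the highest r were 0.84 for Nfkbia and Bcl2a1b, 0.81 for Cd40 and Nfkb1 and 0.80 for Nfkb2 and Relb. Traf1 was unlike the others, with r from -0.57 (Tnfaip3) to 0.28 (Icam1).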

How the data were processed

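The deposited matrices hold raw UMI counts per gene and barcode, which the authors made with Cell Ranger 3.0 against mm10 from 10x 3 prime libraries. The authors labelled cells with Seurat 4.0 by transfer from other data sets, and deposited a table with subtype, percent of mitochondrial UMIs and a Slingshot pseudotime score, of which ranks were used (a mutant cell was placed by the percent of WT cells before it). Annotated cells all had fewer than 2500 genes. The authors' gene signature scores and other columns of that table were not used.

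Counts were summed per library and set of cells and scaled to CPM. Levels have exact Poisson intervals, ratios exact conditional binomial intervals, at 95%. Genes with at least 20 UMIs over both sums were compared, and 1.5-fold was the cutoff. A count of 0 was set to 3. Barcodes with under 8% mitochondrial UMIs, annotated cells included, were clustered with Scanpy 1.11.5 (Python 3.11.15). Clusters were named from markers by a rule set after they were seen. Scrublet marked doublets, which were kept in the sums. Clusters in which most cells were called doublets were left unnamed, so their unannotated cells are outside the B-like and T-like sets. Ratio intervals were tested on simulated data. No count model was run and no group has replicates.

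The 10 genes and the lists were chosen with earlier results of these data known. Beyond the 10, genes are named as the 3 highest and 3 lowest of the pathway list per comparison with 50 or more UMIs, the 5 most alike in pattern (500 or more UMIs), and Crebbp and Kmt2d. Marker, paralog and counted genes are named besides.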

Additional observations from a re-analysis of the deposited data

Results flagged for a closer look

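Bcl2a1b in CK over WT had opposite signs in the 2 subtypes, at a log2 ratio of -0.81 in CB and 0.38 in CC. Tnfaip3 in CK over WT was at -1.91 in CB and at 0.019 in CC, on 10 to 24 UMIs per sum. With 1 library per genotype, neither difference was tested. The CPM of Bcl2a1b was highest in WT in CB and lowest in WT in CC.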

How the results depend on the processing

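Members at least 1.5-fold lower in CB were 3 in CK over WT, 5 once cells above that limit were included and 1 relative to non-GC B-like cells. For K over WT in CB they were 2, but 1 under median-of-ratios scaling or relative to T-like cells and 0 relative to non-GC B-like cells. For C over WT they were 0, but 1 with cells above the limit added, with thinning to 2000 UMIs, with no filter on low counts, or relative to non-GC B-like cells. Counts of higher members in CB, 0 in each mutant, became 1 with thinning in C, K and CK, and 1 in K under median-of-ratios scaling or relative to T-like cells. In CC, K over WT had 1 lower member, 2 with cells above the limit added and 0 relative to non-GC B-like or T-like cells, and 2 higher with thinning and 1 higher relative to non-GC B-like cells. C over WT in CC had 1 higher relative to T-like cells. CK over WT in CC had 1 lower and 1 higher with thinning and 2 higher relative to non-GC B-like cells. Rel in K over WT in CC turned from -0.87 to 0.076 relative to T-like cells. The count of 7 members higher in CC in all libraries was 4 with thinning, and 7 to 10 leaving out each library in turn (10 without WT), a set of alternatives chosen after seeing the data. The median of C over WT in non-GC B-like cells went from -0.00 to -0.24 with thinning. The cause was not tested for these changes. Thinning leaves fewer UMIs and also leaves out cells below 2000 UMIs, and the 2 were not separated. In non-GC B-like cells it left out 646 of 1810 cells in WT and 2376 of 3205 in C. Cd40 in CK over WT in transitioning cells kept its direction in 5 alternatives chosen after seeing the data, from -1.41 (thinned) to -0.86 (cells above the limit added). Cells above the limit took the label of their 25 nearest cells, a step that gave 88.4% of annotated cells their own label, 64.7% of early CB and 17.1% of recycling cells. No paired analysis was possible because each genotype has 1 library. Depth limits Tnfaip3 most, with 5 to 13 UMIs in CB.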

Other observations

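Prememory cells of K had Relb at 40.5 CPM against 81.4 to 104.9 CPM in the other libraries. The K value rests on 12 UMIs, and its log2 ratio over WT was -1.01 (-2.06 to -0.057). Unannotated GC B-like cells under 2500 genes, 10 to 47 per library, were too few to describe.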
